A study of Homo sapiens with 6 samples.

Results

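The SR proteins, their relatives and the hnRNPs are the main families of RNA-binding proteins that steer the splicing of messenger RNA precursors. Their genes were taken from the table of gene counts by name, as the protein-coding genes of the SRSF family, of the TRA2, SRRM and HNRNP series, and of the CDC2-like kinases CLK1 to CLK4. The rule found 46 genes among 60545, made up of 12 SRSF, 2 TRA2, 5 SRRM, 23 HNRNP and 4 CLK genes. It read names alone, and it left out HNRNPA2B1 and HNRNPA1L2 because their symbols have letters after the number. RNA sequencing had been done on 3 libraries from PC3 cells treated with RSM3, which the series title calls a peptide, and on 3 Control libraries. PC3 is a human prostate cancer cell line from a bone metastasis, grown here in RPMI-1640 medium with 10% fetal bovine serum, penicillin and streptomycin in both groups. The labels give no dose, duration or vehicle, and do not say whether replicates were separate cultures, so the p-values reflect spread among these libraries only, and that spread may be technical. All values come from 1 cell line.

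SR proteins carry an RNA recognition motif and a tail rich in arginine and serine. They bind exonic enhancers and help the spliceosome to recognise exons, and kinases of the SRPK and CLK families phosphorylate their tails, which governs where in the nucleus they act. The hnRNPs coat nascent transcripts and often act against SR proteins at the same exons, as HNRNPA1 does against SRSF1. Many genes of both families limit their own output by splicing in a poison exon, which sends the transcript to nonsense-mediated decay. Counts per gene add the productive and the poison forms together, so a change in a gene count does not tell which form changed.

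Library totals ran from 14091359 to 16036658 counts in RSM3 and from 16637873 to 18594251 in Control. The PC3 label was checked on 7 markers of PC3 and epithelial cells (KRT8, KRT18, EPCAM, CDH1, EGFR, VIM and CD44), which all passed the expression filter. They summed to 1943 to 2446 CPM (counts scaled to 1000000 per library) in RSM3 and 1893 to 2033 CPM in Control. Their levels were uneven. VIM stood at 900 to 1087 CPM in RSM3 and 854 to 967 CPM in Control, and KRT8 at 284 to 417 and 271 to 285 CPM. EPCAM was low, at 9.02 to 11.5 CPM in RSM3 and 8.53 to 9.26 CPM in Control, and so was CDH1, at 4.86 to 5.86 and 5.34 to 6.95 CPM. None of 5 leukocyte markers passed the filter, with CD3E at 0 in all libraries, while 4 of 5 fibroblast and endothelial markers did, summing to 96.3 to 121 CPM in RSM3 and 124 to 141 CPM in Control. RSM3 replicate 1 and Control replicates 1 and 2 stood apart from the others. Departures of a library from the mean of all 6 went with GC content. Over tested genes, which are no independent replicates, Spearman's rho was 0.42 for RSM3 replicate 1, −0.32 and −0.29 for RSM3 replicates 2 and 3, and 0.14, 0.16 and −0.20 for Control replicates 1, 2 and 3. TPM1, a tropomyosin gene, stood at 29.4 to 31.5 CPM in RSM3 and at 102, 109 and 31.2 CPM in Control replicates 1, 2 and 3. Where leaving out one of them changed the call of a gene named below, that is stated.

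Among the splicing genes, TRA2A and TRA2B rose in RSM3 libraries, and no other member was called in either direction when all 6 libraries were used. Both genes encode transformer-2 proteins, which are SR-like activators that bind GAA-rich exonic enhancers. Of 46 members, 38 passed the filter on low counts, and 2 of these were called higher and 0 lower at an adjusted p under 0.05 (edgeR's quasi-likelihood test, with Benjamini-Hochberg adjustment over all 15773 genes tested). The background was 3.09% of tested genes called higher and 1.1% called lower, against 5.26% of the 38 higher. At an unadjusted p under 0.05, 9 members were higher and 2 lower, with backgrounds of 9.94% and 7.84%. DESeq2 called 5 members higher and limma voom 3, with 3.98% and 3.09% of all genes, and both called 0 members lower, with 1.71% and 1.07% of all genes. The median log2 fold change of the 38 was 0.07, beside −0.0048 for all genes tested and 0.0081 for tested protein-coding genes. The members had 26 positive and 12 negative log2 fold changes, while 49% of all tested genes were positive. Fold changes ran from 0.852 to 1.61.

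**Figure D1:**
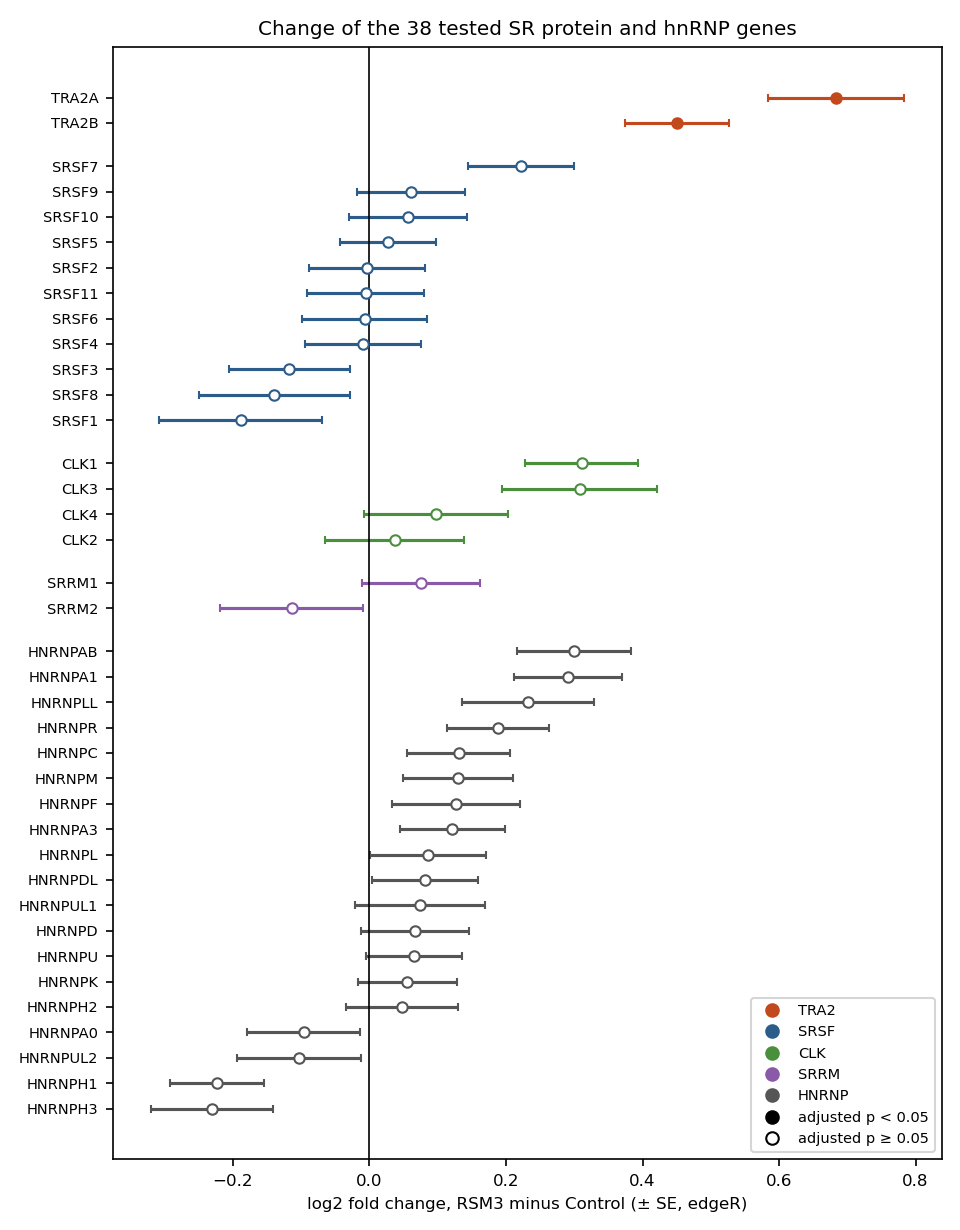
Log2 fold change of each of the 38 tested members, RSM3 minus Control, with its standard error from edgeR, ordered by size within 5 families. Filled points passed an adjusted p of 0.05. TRA2A and TRA2B lie to the right of all other members, and the SRSF genes lie on both sides of 0.

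The promoter of TRA2B is shown because this gene rose, and that of CLK1, the kinase gene closest to the threshold, is shown for comparison. Both windows run from 250 bases before to 50 bases after the RefSeq start on GRCh38.p14. In that table of promoters, 35 of the 38 tested members had an entry. TRA2A, which rose more than TRA2B, had none and is therefore not shown. Both genes lie on the minus strand, and the sequences are written 5′ to 3′ along the gene, at chr3:185937965-185938264 for TRA2B and chr2:200864609-200864908 for CLK1.
TRA2B: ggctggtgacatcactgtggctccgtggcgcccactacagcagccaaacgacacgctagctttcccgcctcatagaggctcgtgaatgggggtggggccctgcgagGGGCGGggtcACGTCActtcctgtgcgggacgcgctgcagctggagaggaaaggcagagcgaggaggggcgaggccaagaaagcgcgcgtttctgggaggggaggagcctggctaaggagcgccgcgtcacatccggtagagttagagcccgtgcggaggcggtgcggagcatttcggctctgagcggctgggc
CLK1: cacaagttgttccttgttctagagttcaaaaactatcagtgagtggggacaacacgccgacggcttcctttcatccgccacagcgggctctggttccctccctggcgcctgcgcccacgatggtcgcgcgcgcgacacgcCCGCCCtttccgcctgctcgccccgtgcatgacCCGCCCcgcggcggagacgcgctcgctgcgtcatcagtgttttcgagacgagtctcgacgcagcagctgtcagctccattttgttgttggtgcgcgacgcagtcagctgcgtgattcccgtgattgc
Capitals mark matches on either strand to any of 7 motifs: the GC box GGGCGG, the CCAAT box CCAAT, the cAMP-response core TGACGT, the AP-1 site TGANTCA, the ETS core CCGGAA, the E-box CACGTG and the TATA box TATAAA. TRA2B held 1 GC box and 1 cAMP-response core, with no overlap between them, and CLK1 held 2 GC boxes. The cAMP-response core was present in 7 of 35 member promoters and in 8.32% of all 27305 promoters of the table, which include non-coding genes. The GC box was present in 24 of 35 member promoters and in 44.6% of all promoters, and AP-1 sites in 0 of 35 and in 7.76%. The CCAAT box was found in 16, the ETS core in 6, the E-box in 9 and the TATA box in 5 of the 35, against 35.7%, 17.6%, 7.43% and 12.0% of all promoters. A match describes the letters in these windows and is not a measured binding site.

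TRA2A (ENSG00000164548, chromosome 7, 23504780 to 23532041 on GRCh38, minus strand) had raw counts of 762, 1016 and 864 in RSM3 replicates 1, 2 and 3, and of 679, 580 and 697 in Control replicates 1, 2 and 3. Scaled by library size and TMM factors, these were 57.3, 63.3 and 55.6 CPM in RSM3 libraries and 40.0, 33.0 and 36.7 CPM in Control libraries. Every RSM3 library was above every Control library, and the lowest RSM3 value came from replicate 3. The mean was 58.7 ± 4.04 CPM in RSM3 and 36.6 ± 3.53 CPM in Control (SD, n = 3 each). This is a 1.61-fold difference, 0.68 ± 0.10 on the log2 scale (SE; adjusted p = 0.00189 by edgeR). TRA2A ranked 101 of 15773 by p-value and 329 by log2 fold change.

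TRA2B (ENSG00000136527, chromosome 3, 185915906 to 185938136, minus strand) encodes the more abundant paralogue. Its levels were 322, 342 and 333 CPM in RSM3 replicates 1, 2 and 3 and 240, 229 and 261 CPM in Control replicates 1, 2 and 3, so the groups did not overlap here either. The mean was 332 ± 9.98 CPM in RSM3 and 243 ± 16.1 CPM in Control (SD, n = 3 each), or 0.45 ± 0.08 on the log2 scale (SE; adjusted p = 0.00483 by edgeR). In bulk RNA, more transcripts per cell and more cells with the transcript cannot be told apart. Per kilobase of exon, TRA2A averaged 16.7 ± 1.15 CPM in RSM3 and 10.4 ± 1.00 in Control, and TRA2B averaged 28.2 ± 0.848 in RSM3 and 20.7 ± 1.37 in Control. Lengths are unions of all annotated exons, 3516 bases for TRA2A and 11769 for TRA2B, so the 2 genes compare only roughly on this scale. The ratio of TRA2A to TRA2B counts was 0.177 ± 0.00904 in RSM3 and 0.150 ± 0.0141 in Control (p = 0.1 by a two-sided exact permutation test, and 3 against 3 samples can give no smaller p). By library it was 0.178, 0.185 and 0.1670 in RSM3 and 0.1667, 0.144 and 0.141 in Control (replicates 1, 2 and 3). RSM3 replicate 3 and Control replicate 1 thus almost met. The ratio was formed from the 2 genes already called and adds no separate evidence.

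The direction of both TRA2 genes was the same in all 17 other settings, and the calls were not. TRA2A was called in each of the 6 fits that left out 1 library, with log2 fold changes of 0.62 to 0.75, and 0.938% of all tested genes were called higher in all of these. TRA2B was not called without Control replicate 1 (0.44, edgeR adjusted p = 0.0522) or without Control replicate 2 (0.41, adjusted p = 0.0631), and its leave-one-out values ran from 0.41 to 0.50. A term for Control replicates 1 and 2, the libraries with high TPM1, ended both calls. With that term TRA2A stood at 0.68 ± 0.16 (SE, adjusted p = 0.0825) and TRA2B at 0.35 ± 0.11 (adjusted p = 0.236). In that fit RSM3 is set against 1 library, Control replicate 3, whose spread is taken to equal that of the rest, and it called 0.634% of all genes higher and 0.114% lower.

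**Figure D2:**
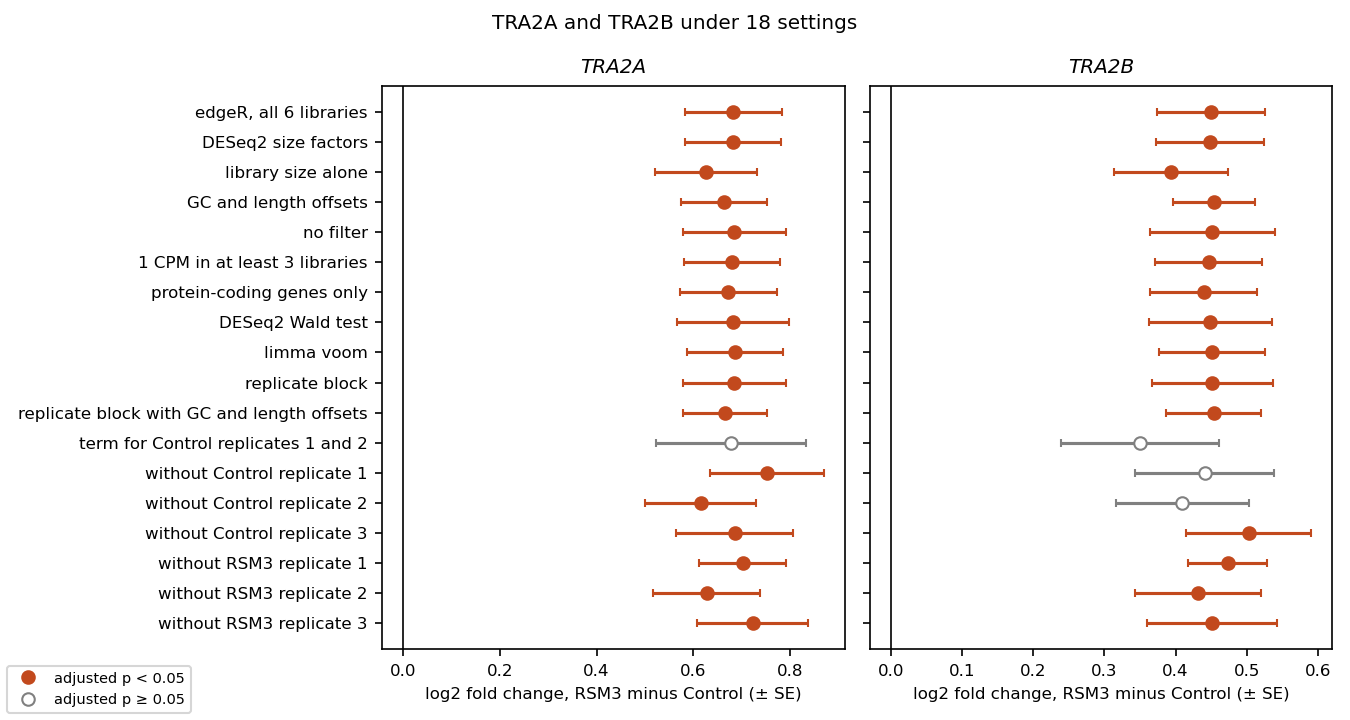
Log2 fold change of TRA2A (left) and TRA2B (right), RSM3 minus Control, with standard errors, in the edgeR fit to all 6 libraries and 17 other settings. All points lie right of 0, and open grey points did not pass an adjusted p of 0.05, as in the fit with a term for Control replicates 1 and 2.

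The SRSF genes encode the classical SR proteins, and none of the 11 tested was called. Their log2 fold changes ran from −0.19 to 0.22 with a median of −0.0052, 4 positive and 7 negative. SRSF12 did not pass the filter, with 0 to 1 count in RSM3 libraries and 0 to 7 in Control libraries. SRSF5, the most abundant SR protein gene per kilobase of exon, had 519, 537 and 537 CPM in RSM3 replicates 1, 2 and 3 and 511, 538 and 513 CPM in Control replicates 1, 2 and 3. These ranges overlapped (log2 fold change 0.03 ± 0.07, SE; edgeR adjusted p = 0.891). SRSF2, next by level per kilobase and known to promote exon inclusion at both G-rich and C-rich enhancers, had 167, 199 and 199 CPM in RSM3 libraries and 184, 186 and 196 CPM in Control libraries, again overlapping (−0.0036 ± 0.09, adjusted p = 0.99).

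SRSF7, a shuttling SR protein gene that also takes part in RNA export and in the choice of poly(A) site, had the smallest p of its family. It stood at 161, 180 and 167 CPM in RSM3 replicates 1, 2 and 3 and at 138, 150 and 148 CPM in Control replicates 1, 2 and 3, with no overlap. The log2 fold change of 0.22 ± 0.08 (SE) did not pass (edgeR adjusted p = 0.146). It passed in 2 of 17 other settings, which were the fit without RSM3 replicate 1 (0.26, adjusted p = 0.00238) and that with GC and length offsets. Of the 11 SRSF genes, SRSF7 alone had groups that did not overlap. Over all tested genes, 12.8% were higher without overlap and 11.1% were lower.

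SRSF genes were low in RSM3 replicate 1. That library was the lowest of the 3 RSM3 libraries for 10 of the 11, and the lowest of all 6 libraries for 7. Over all 38 members these counts were 23 and 10, and over the 19 tested HNRNP genes 10 and 3. The shares over all genes were not computed. SRSF1, the prototype SR protein gene, had 109, 153 and 153 CPM in RSM3 replicates 1, 2 and 3 and 158, 146 and 169 CPM in Control replicates 1, 2 and 3. Its log2 fold change was −0.19 ± 0.12 (SE; edgeR adjusted p = 0.455) with all libraries and −0.04 (adjusted p = 0.735) without RSM3 replicate 1. SRSF1 was chosen after its values were seen. Over the whole family, summed levels were 1860, 2118 and 2129 CPM in RSM3 replicates 1, 2 and 3 and 2010, 2033 and 2070 CPM in Control replicates 1, 2 and 3.

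The 38 members have a median GC content of 41.3% (longest annotated transcript), beside 48.1% over tested protein-coding genes. Across the 38, the Spearman correlation of the log2 deviation from the 6-library mean with GC content was 0.37 in RSM3 replicate 1, −0.42 and −0.43 in RSM3 replicates 2 and 3, and 0.22, 0.04 and −0.07 in Control replicates 1, 2 and 3. The points of 1 library share its depth and preparation, so these are descriptions. Relative to members of higher GC content, those of lower GC content thus tended to lie lower in RSM3 replicate 1 and higher in replicates 2 and 3. Not all did. HNRNPH1, with 36.3% GC, deviated by −0.10, −0.11 and −0.13 in RSM3 replicates 1, 2 and 3. The part of RSM3 replicate 1 in each result was not tested beyond leaving it out and removing the trend with GC content and length.

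**Figure D3:**
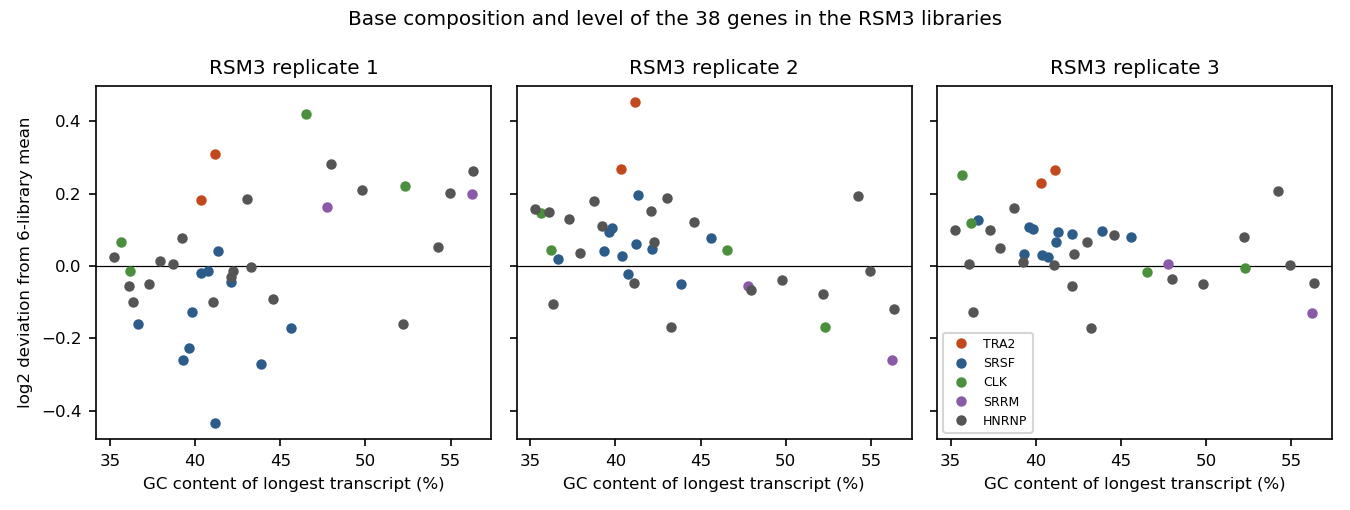
Log2 deviation of each of the 38 members from its 6-library mean (vertical) against the GC content of its longest transcript (horizontal, %), for RSM3 replicates 1, 2 and 3, coloured by family. In replicate 1 the SRSF genes lie mostly below 0, and the trend with GC content rises, while in replicates 2 and 3 it falls.

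Leaving out RSM3 replicate 1 changed the counts most. Without it, 9 of 39 members tested were called higher and 3 lower, with 8.83% and 5.77% of all tested genes called higher and lower. The genes called higher were TRA2A, TRA2B, CLK1, HNRNPA1, HNRNPA3, HNRNPAB, HNRNPLL, HNRNPR and SRSF7, and those called lower were HNRNPH1, HNRNPH3 and SRRM2. With offsets that removed the trend with GC content and length, 6 members were called higher and 0 lower, with backgrounds of 6.3% and 3.4%. These 6 were TRA2A, TRA2B, CLK1, HNRNPA1, HNRNPAB and SRSF7. In all, 11 members that did not pass with all 6 libraries passed in at least 1 of 17 other settings, and 25 passed in none. Of all genes not called with all 6 libraries, 13.6% passed in at least 1 of those settings. Other settings moved the count too. Without a filter, 5 of 42 members were called higher and 0 lower (backgrounds 2.14% and 1.22%), and with library size alone 2 were higher and 1 lower (1.95% and 1.61%). The offsets with the replicate number as a block gave 6 higher and 0 lower (5.76% and 2.98%). Without Control replicate 1 or 2, TRA2A alone was called (1.15% and 1.1% of all genes higher, 0.229% lower in both). Without Control replicate 3, RSM3 replicate 2 or RSM3 replicate 3, TRA2A and TRA2B were called and no member was lower. All genes were then called higher at 1.51%, 1.65% and 1.45%, and lower at 0.975%, 0.434% and 0.33%.

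The CLK genes encode dual-specificity kinases that phosphorylate SR proteins, and all 4 had positive log2 fold changes, of 0.04 to 0.31, without a call. CLK1 stood at 102, 108 and 116 CPM in RSM3 replicates 1, 2 and 3 and at 83.8, 87.4 and 92.3 CPM in Control replicates 1, 2 and 3. The groups did not overlap, and the log2 fold change was 0.31 ± 0.08 (SE; edgeR adjusted p = 0.0538). CLK1 passed in 5 of 17 other settings, among them DESeq2 and the fit without RSM3 replicate 1 (0.35, adjusted p = 0.0002). CLK1 transcripts are known to be held in the nucleus with introns retained and spliced on demand, and the gene counts do not separate the 2 forms. CLK2, the next by level per kilobase, had 71.2, 54.4 and 60.9 CPM in RSM3 libraries and 59.1, 60.4 and 62.0 CPM in Control libraries, with RSM3 replicate 1 above and replicate 2 below all Control libraries (0.04 ± 0.10, adjusted p = 0.897, and −0.07 without RSM3 replicate 1). CLK3 was chosen after its values were seen. CLK3 had 77.3, 59.6 and 57.2 CPM in RSM3 replicates 1, 2 and 3 and 49.7 to 54.7 CPM in Control, so the groups did not overlap, and its log2 fold change of 0.31 ± 0.11 (adjusted p = 0.165) was 0.16 without RSM3 replicate 1. Its exons overlap those of EDC3 on the other strand, and since the strand setting of the counting is not given, reads could not be assigned to either with certainty. The same limit holds for 9 of the 38 tested members, which are CLK3, HNRNPAB, HNRNPH3, HNRNPU, HNRNPUL1, SRRM2, SRSF1, SRSF2 and SRSF9.

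The SRRM genes encode large serine and arginine repeat proteins of nuclear speckles. SRRM2, a scaffold of the speckle, had 588, 428 and 468 CPM in RSM3 replicates 1, 2 and 3 and 566, 514 and 526 CPM in Control replicates 1, 2 and 3. RSM3 replicate 1 was the highest of the 6 and replicates 2 and 3 were the lowest (log2 fold change −0.11 ± 0.11, SE; edgeR adjusted p = 0.642). Without RSM3 replicate 1 the change was −0.26 (adjusted p = 0.0013). Its GC content of 56.2% is next to the highest among tested members, and its exons overlap those of SRRM2-AS1 and ELOB on the other strand. SRRM1, a coactivator of splicing, had 105, 90.2 and 94.1 CPM in RSM3 libraries and 91.4, 86.6 and 96.2 CPM in Control libraries, with overlap (0.08 ± 0.09, adjusted p = 0.721). SRRM3 and SRRM4, which drive the splicing of neural microexons, and SRRM5 did not pass the filter, with SRRM4 at 0 counts in all libraries, which allows up to 3 counts in each.

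None of the 19 tested HNRNP genes was called, 15 of them with positive log2 fold changes, and the median was 0.08 with a range of −0.23 to 0.30. The 4 HNRNPCL genes did not pass the filter. HNRNPA1, an hnRNP that represses exons and the most abundant of the 38 genes per kilobase of exon, had 1176, 1177 and 1082 CPM in RSM3 replicates 1, 2 and 3 and 887, 916 and 1005 CPM in Control replicates 1, 2 and 3. The groups did not overlap, and the mean was 1145 ± 54.8 CPM in RSM3 and 936 ± 61.3 CPM in Control (SD, n = 3 each; log2 fold change 0.29 ± 0.08, SE; edgeR adjusted p = 0.0596). It passed in 6 of 17 other settings, DESeq2 and limma voom among them. HNRNPA1 has many near-identical processed pseudogenes, so its value is uncertain by the reads they share. The 75 rows named as HNRNPA1 pseudogenes summed to 13.8, 11.9 and 12.0 CPM in RSM3 replicates 1, 2 and 3 and 21.8, 21.5 and 12.8 CPM in Control replicates 1, 2 and 3 (two-sided exact permutation test, p = 0.2), which is 1.01% to 2.46% of the counts of HNRNPA1. They were highest in Control replicates 1 and 2, and HNRNPA1 itself was lowest there. The 75 rows were taken by name and include HNRNPA1P48, which is listed as protein coding.

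HNRNPF, the next by level per kilobase, binds G-runs near splice sites. It had 557, 438 and 447 CPM in RSM3 libraries and 426, 451 and 444 CPM in Control libraries, and RSM3 replicate 1 was the highest of the 6 (log2 fold change 0.13 ± 0.09, SE; edgeR adjusted p = 0.539). Without that replicate the change was 0.0093. Its relatives HNRNPH1 and HNRNPH3, chosen after their values were seen, had the most negative changes of the members. HNRNPH1 had 362, 360 and 355 CPM in RSM3 replicates 1, 2 and 3 and 408, 427 and 422 CPM in Control replicates 1, 2 and 3. It was the single member with all RSM3 libraries below all Control libraries, beside 11.1% of all tested genes. Its log2 fold change was −0.22 ± 0.07 (SE; edgeR adjusted p = 0.0975). It passed in 2 of 17 other settings, library size alone (−0.28) and without RSM3 replicate 1 (−0.23, adjusted p = 0.00217). HNRNPH3 had 240, 214 and 214 CPM in RSM3 libraries and 231, 271 and 283 CPM in Control libraries, with RSM3 replicate 1 above Control replicate 1 (−0.23 ± 0.09, adjusted p = 0.191). HNRNPH2 had a log2 fold change of 0.05 ± 0.08.

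HNRNPAB, also chosen after its values were seen, had 226, 249 and 251 CPM in RSM3 replicates 1, 2 and 3 and 216, 186 and 187 CPM in Control replicates 1, 2 and 3. The groups did not overlap (log2 fold change 0.30 ± 0.08, SE; edgeR adjusted p = 0.067), and it passed in 5 of 17 other settings. Its exons overlap those of PHYKPL on the other strand. The remaining HNRNP genes had log2 fold changes between −0.10 and 0.23. HNRNPK, HNRNPU and HNRNPC, which bind poly(C), chromatin-associated RNA and uridine tracts, stood at 0.06 ± 0.07, 0.06 ± 0.07 and 0.13 ± 0.08 (SE). Summed over the family, levels were 6986, 6937 and 6763 CPM in RSM3 replicates 1, 2 and 3 and 6280, 6470 and 6554 CPM in Control replicates 1, 2 and 3. HNRNPA1, whose value is uncertain, weighed most in these sums, with means of 1145 CPM in RSM3 and 936 CPM in Control. The sums therefore do not show a rise across the family.

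**Figure D4:**
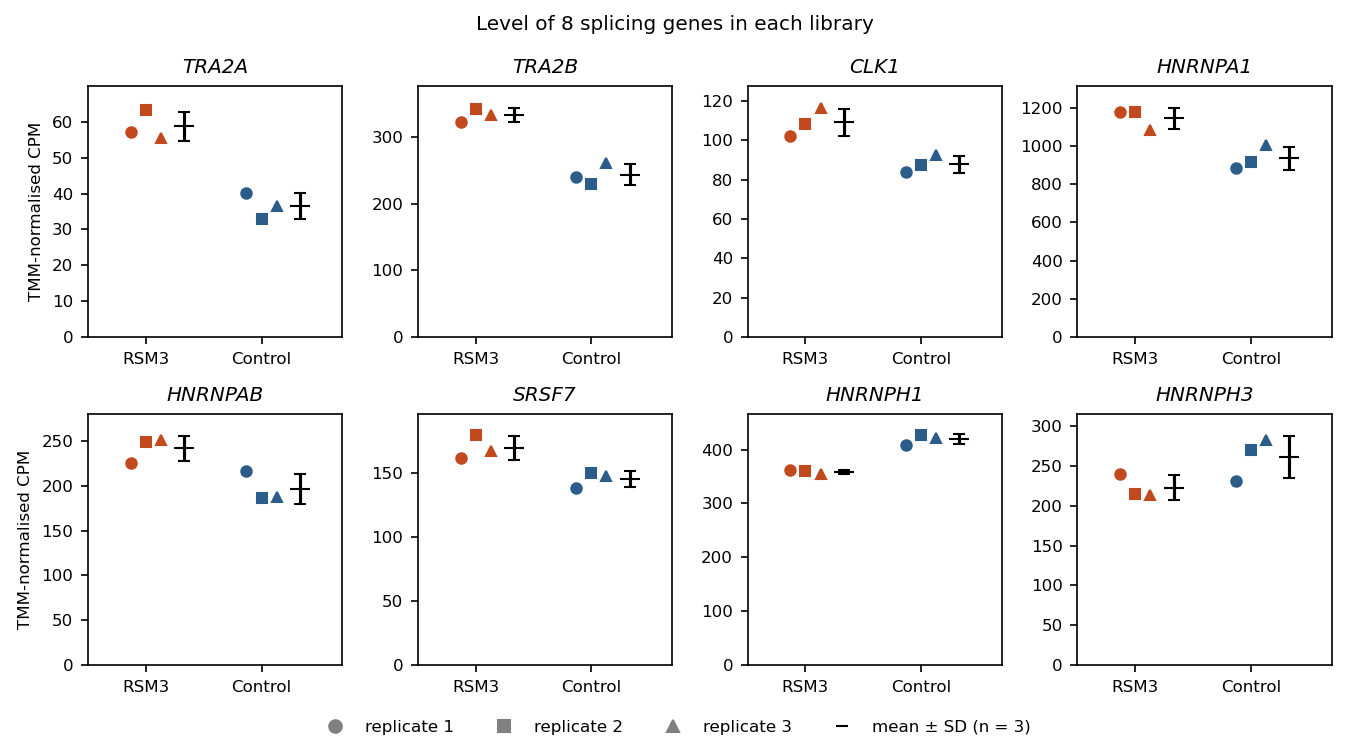
TMM-normalised CPM of 8 members in each library, with RSM3 left and Control right, one symbol per replicate number, and the mean ± SD of 3 libraries beside the points. TRA2A and TRA2B are apart by most, CLK1, HNRNPA1, HNRNPAB and SRSF7 are higher in all RSM3 libraries by less, HNRNPH1 is lower in all, and HNRNPH3 overlaps.

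Over the 38 members, RSM3 and Control libraries did not overlap for 10 that were higher and 1 that was lower, with backgrounds of 12.8% and 11.1% of all tested genes. The 10 were TRA2A, TRA2B, CLK1, CLK3, SRSF7, HNRNPA1, HNRNPAB, HNRNPLL, HNRNPM and HNRNPR. Levels per kilobase of exon spanned 2.86 CPM for CLK3 to 204 CPM for HNRNPA1, as means of all 6 libraries. HNRNPA1, HNRNPF, HNRNPK, HNRNPAB and SRSF5 led this order, and the neighbours HNRNPF (148 ± 20.3 in RSM3 and 135 ± 3.91 in Control, SD, n = 3) and HNRNPK (139 ± 3.93 in RSM3 and 134 ± 4.84 in Control) lay within their spread. TRA2B ranked 25 and TRA2A 30 of 38. Exonic length is the union of all annotated exons, so genes with long minor exons, such as CLK3 with 20443 bases, are understated. All 46 members together took 0.963%, 1.02% and 1.01% of raw counts in RSM3 replicates 1, 2 and 3. In Control replicates 1, 2 and 3 the shares were 0.963%, 0.978% and 1.00%, so the groups overlapped. Scaled by TMM factors as well, the sums were 10200.5, 10231.6 and 10109.7 CPM in RSM3 and 9449, 9596 and 9780 CPM in Control, in the same order. These did not overlap, so the reading of the total depended on the scaling.

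**Figure D5:**
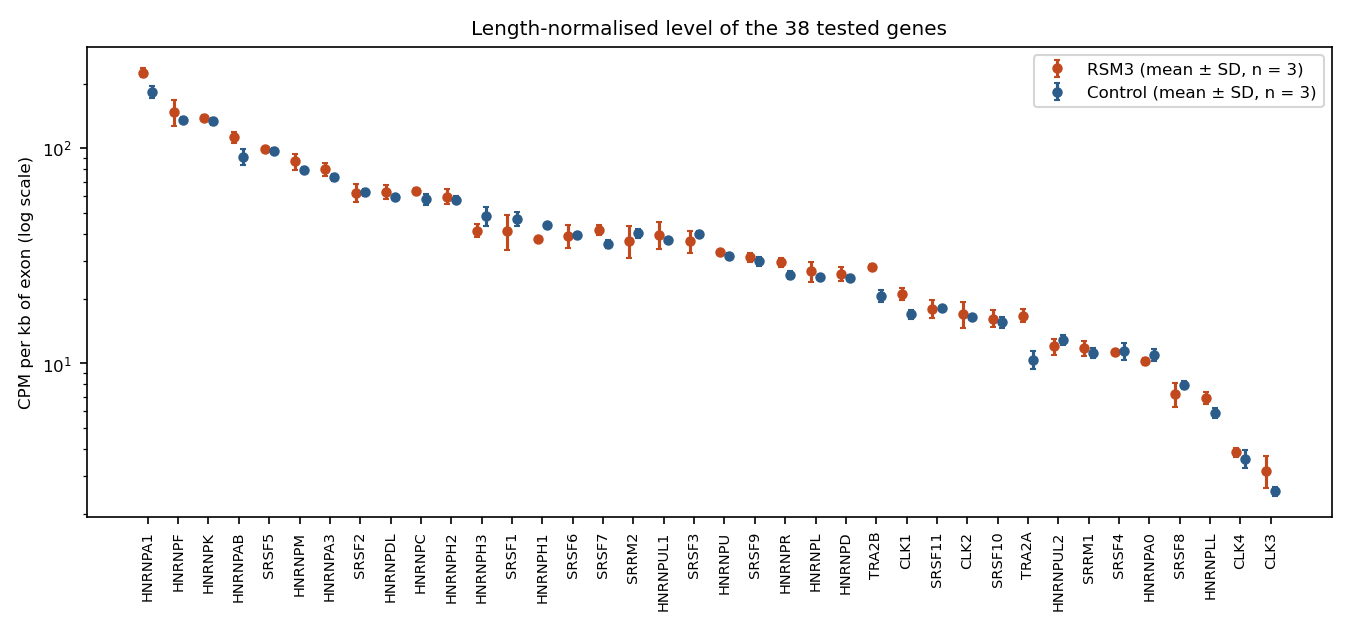
CPM per kilobase of exon (log scale) of the 38 tested members in descending order of the 6-library mean, RSM3 left of Control for each gene, as mean ± SD of 3 libraries. Levels run from HNRNPA1 at the top to CLK3 at the bottom, and the groups differ little beside the distance between genes.

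Annotated decay and intron-retention forms, which the rule did not use, were common among the members. In GENCODE 29, 30 of the 38 (78.9%) have at least 1 transcript annotated as a target of nonsense-mediated decay, beside 42.9% of 12911 tested protein-coding genes. For retained introns the shares are 73.7% and 57.2%. TRA2A has 1 decay and 4 retained-intron transcripts annotated, and TRA2B 1 and 8. These are features of the annotation and were not measured in the libraries.

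Other genes of the splicing machinery were read from 9 lists, 145 genes in all, of which 141 were tested. Of these, 6 were called higher and 0 lower, or 4.26%, beside 4.2% of all tested genes in either direction. Without RSM3 replicate 1, 25 genes of these lists were called higher and 7 lower, with the backgrounds of 8.83% and 5.77% given above. The lists for the SR protein kinases (7 tested), U1 (9), U2 and SF3 (20), the tri-snRNP (17) and the catalytic complex (21) had no call. Their median log2 fold changes were 0.07, 0.03, 0.06, 0.08 and 0.07. Single values ran from −0.97 to 0.23 in the kinase list and from −0.43 to 0.30 in the U2 and SF3 list. SRPK1, the main cytoplasmic SR protein kinase gene, stood at 168 ± 9.06 CPM in RSM3 and 143 ± 6.96 CPM in Control (SD, n = 3; edgeR adjusted p = 0.139). It passed with GC and length offsets (adjusted p = 0.0177), with the replicate block added to these (0.0295) and without RSM3 replicate 1 (0.00112). PRPF4B, SNRNP70, LUC7L3, SF3B1, U2AF2, SNRNP200, PRPF8, PRPF19 and XAB2, the most abundant of those lists by mean CPM, had log2 fold changes of −0.12 to 0.12. Of these, 4 were called without RSM3 replicate 1. PRPF8 then stood at −0.21 (edgeR adjusted p = 0.00386), XAB2 at −0.23 (0.00605) and U2AF2 at −0.18 (0.0299), while PRPF4B stood at 0.18 (0.0258).

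The 8 Sm core genes, whose products ring the spliceosomal snRNAs, had 2 rises and a median of 0.31. The median over all tested genes was −0.0048, and 3.09% of them were called higher. SNRPG rose to 32.3 ± 1.86 CPM in RSM3, against 21.5 ± 2.06 CPM in Control (log2 fold change 0.59 ± 0.11, SE; edgeR adjusted p = 0.00921), and SNRPD2 to 57.0 ± 2.55 CPM, against 42.4 ± 1.85 CPM in Control (adjusted p = 0.0157). Both calls were lost without Control replicate 1 (adjusted p = 0.0682 and 0.0983), without Control replicate 2 (0.0781 and 0.117) and with the term for those libraries, and that of SNRPD2 also without RSM3 replicate 2 or 3 (0.0587 and 0.077).

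Among 36 other splicing regulators tested, QKI and PSPC1 rose and 34 did not pass, beside 3.09% of all tested genes called higher. The list median was 0.04. Log2 fold changes in the list ran from −0.96 to 0.85, and 0 genes were called lower. QKI, a STAR-family protein gene known for driving circular RNA formation and splicing in epithelial to mesenchymal change, had 202, 238 and 265 CPM in RSM3 replicates 1, 2 and 3 and 126, 134 and 131 CPM in Control replicates 1, 2 and 3. All RSM3 libraries were well above all Control libraries (log2 fold change 0.85 ± 0.10, SE; edgeR adjusted p = 0.000293), and QKI was called in all 17 other settings, including the term for Control replicates 1 and 2. PSPC1, a paraspeckle protein gene, rose to 66.4 ± 3.14 CPM in RSM3, against 47.0 ± 7.10 CPM in Control (adjusted p = 0.0229), and was not called without Control replicate 2 or 3, without RSM3 replicate 2 or 3 (adjusted p = 0.0751 to 0.104), or with library size alone (0.0512).

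Of 16 genes of the exon junction complex and of nonsense-mediated decay, 1 was called higher, with a list median of −0.02. The background was 3.09% of all tested genes called higher. The called gene was EIF4A3, the helicase that anchors the junction complex. It averaged 192 ± 2.61 CPM in RSM3 and 153 ± 14.8 CPM in Control (SD, n = 3; log2 fold change 0.34 ± 0.08, SE; edgeR adjusted p = 0.0414), and the call held in 1 of the 6 fits that left out a library, that without RSM3 replicate 1. It was also lost with library size alone (adjusted p = 0.092) and with the term for Control replicates 1 and 2 (0.0744). Of 7 hnRNP proteins outside the naming rule, 1 was called higher, with the same background. This was RALY, a relative of HNRNPC, at 224 ± 15.1 CPM in RSM3 and 182 ± 4.41 CPM in Control (edgeR adjusted p = 0.0484). Its call was likewise lost in 5 of those 6 fits, all but the one without RSM3 replicate 1. DESeq2 size factors (adjusted p = 0.0502), library size alone (0.1), protein-coding genes only (0.0506), the replicate block (0.0655) and the term for Control replicates 1 and 2 (0.321) ended it as well. HNRNPA2B1, which works with HNRNPA1 as a core hnRNP, averaged 1109 ± 55.4 CPM in RSM3 and 932 ± 31.8 CPM in Control, with no overlap (log2 fold change 0.25 ± 0.08, SE; adjusted p = 0.0861). It passed in 4 of 17 other settings, DESeq2 (adjusted p = 0.0342) and the fit without RSM3 replicate 1 (0.000387) among them.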

How the data were processed

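Gene expression was measured in 3 RSM3 and 3 Control samples of PC3 cells. Libraries were made from poly(A) RNA with dUTP strand marking and read from both ends, per the labels' protocols. STAR (2.7.1a) and featureCounts, with fastp, DESeq2 and the build hg38, are named in the submitters' processing notes. Strand setting, annotation release and how multiply mapping reads were treated are not given in these sources. The authors deposited raw counts per gene for 60545 genes, with no normalisation.

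Genes were filtered with filterByExpr (minimum count 10), and groups compared by the quasi-likelihood test of edgeR (4.0.16, R 4.3.3) with TMM factors, robust dispersions and Benjamini-Hochberg adjustment. Standard errors were derived from the F statistic. Lengths, GC content and coordinates came from GENCODE 29 on GRCh38 (99.0% of tested genes). GC and length offsets were centred loess curves (span 0.5, degree 2). Alternatives included DESeq2 (1.42.0) and limma voom (3.58.1). Scripts were tested on simulated data.

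Values were printed for called members, for the 2 highest per kilobase and the smallest p in each family, and for up to 4 called genes (otherwise the 2 most abundant) per list. CLK3, SRSF1, HNRNPH1, HNRNPH3 and HNRNPAB were added after their values were seen. Members, lists and alternatives were chosen with earlier results of these data known. Amino acid sequences were not used here.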

Additional observations from a re-analysis of the deposited data

How the results depend on the processing

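The counts of called members depended on the setting. Members called higher, 2 with all 6 libraries, were 6 with GC and length offsets, 5 with no filter, 5 with DESeq2, 6 with the replicate block and GC and length offsets, and 0 with the term for Control replicates 1 and 2, where 18 of all genes were lower and 100 higher. Leaving out 1 library at a time gave 1 to 9 members higher and 0 to 3 lower, and library size alone gave 1 lower. Over all genes, 488 were higher and 174 lower with all libraries. They were 308 and 254 with library size alone, 993 and 537 with GC and length offsets, 909 and 470 with the block added, 392 lower with no filter and 269 lower with DESeq2. Without 1 library, 177 to 1447 were higher and 37 to 946 lower. SF3B4, a member of the U2 list, stood at 0.01 with all libraries and −0.21 without RSM3 replicate 1 (edgeR adjusted p = 0.0397). The cause of these shifts was not tested. With library size alone, all genes tested had a median of −0.06 (log2) and the members 0.01. Replicate numbers come from the titles, and same-numbered libraries did not deviate together (r = 0.03, −0.02 and 0.04 for replicates 1, 2 and 3 across genes). With the replicate block, 467 of all genes were called higher and 186 lower, and TRA2A and TRA2B were called (edgeR adjusted p = 0.00193 and 0.0073). Precision was limited by 3 libraries a group, with a common biological coefficient of variation of 10.3%.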

Other observations

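Rows named as pseudogenes of the members' families, 139 in all, summed to 24.9, 21.9 and 21.4 CPM in RSM3 replicates 1, 2 and 3 and to 38.6, 39.3 and 24.0 CPM in Control replicates 1, 2 and 3 (two-sided exact permutation test, p = 0.2). RSM3 libraries and Control replicate 3 were close to each other, and Control replicates 1 and 2 were higher. The sum came to 0.211% to 0.409% of the counts of the 46 members. HNRNPA1P48, a row that the table lists as protein coding and that the naming rule leaves out, averaged 4.22 ± 0.459 CPM in RSM3 and 7.02 ± 2.25 CPM in Control (SD, n = 3 each; log2 fold change −0.73 ± 0.24, SE; edgeR adjusted p = 0.124). Control replicates 1 and 2 stood at 7.80 and 8.77 CPM, and Control replicate 3, at 4.48 CPM, lay within the RSM3 range of 3.87 to 4.74 CPM. HNRNPA1P48 is among the 139 rows summed above, so its values are not separate from that sum.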
